A study of Homo sapiens with 18 samples.

Results

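The 10 genes described here code for alcohol dehydrogenases and for proteins that make, carry or sense retinoic acid. They are ADH7, ADH1B, ADH1C, RDH10, DHRS3, DHRS9, ALDH1A1, ALDH1A3, CRABP2 and RARB, taken by gene name from a count table of 19901 genes. ADH1B and ADH1C were counted over a common stretch, where a read counts for both. They are read as 1 signal, so that the 10 genes give 9 signals. Counts of members below are over the 10 genes, so that this signal enters them under both names. All 10 passed the filter on low counts, which left 15475 genes for testing.

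mRNA was sequenced from 3 established head and neck squamous cell carcinoma lines: Detroit 562, from a metastasis of a pharyngeal tumour, FaDu, from the hypopharynx, and SCC-9, from the tongue. Each line was left untreated (control) or given 50 ng/mL hepatocyte growth factor (HGF), the ligand of the MET receptor tyrosine kinase, with 3 libraries per group and 18 in all. The samples' own records give 16 h of treatment and the record of the whole series gives 48 h. SCC-9 cells were kept in DMEM F12 containing hydrocortisone, a steroid, at 400 ng/mL, and the other lines in MEM-α, so that line and medium cannot be told apart. Each site is represented by a single established line, and no allele or vector was introduced.

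Retinol is oxidised to retinal by alcohol dehydrogenases and retinol dehydrogenases in a reversible step, and retinaldehyde dehydrogenases of the ALDH1A group oxidise retinal irreversibly to retinoic acid. CRABP2 carries retinoic acid to nuclear receptors (RARs paired with RXRs), FABP5 is another carrier, and CYP26 enzymes clear it. The pathway is known for its part in the differentiation of squamous epithelia, and RARB is itself a classic retinoic acid-inducible gene. Alcohol dehydrogenases also oxidise ethanol, and ADH7 is the form typical of the upper digestive tract.

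Total counts ranged from 35304770 to 44003970 per library, where 1 read was worth 0.0232 to 0.0304 CPM, the normalised count used here (reads of a gene per megaread of the library, with library sizes adjusted by TMM, the trimmed mean of M values). Intervals given for counts cover counting error only. All 7 epithelial markers examined had a mean of at least 1 CPM in each line, with a summed level of 3444 to 12760 CPM. Of 6 fibroblast markers SCC-9 had 3 at 1 CPM or more, Detroit 562 2 and FaDu 1, with summed levels from 3.41 to 99.4 CPM. Of 3 endothelial markers Detroit 562 had 1, FaDu 2 and SCC-9 0 at that level. In the untreated cells MET averaged 793 CPM in Detroit 562 against 289 in SCC-9 and 148 in FaDu. DUSP6, an ERK-induced phosphatase used here as a check of the treatment, went from 5.69 to 16.4 CPM in Detroit 562 (log2 fold change 1.53, adjusted p = 0.000247) and from 9.27 to 25.2 in FaDu (1.44, adjusted p = 0.0115), with 56.0 and 77.8 in SCC-9 (0.47, adjusted p = 1).

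Short stretches of DNA upstream of the genes are shown for the receptor gene, the textbook target of its own ligand, and for the ADH1 pair. The pair is 1 signal because reads were counted for both genes, and common regulation was not tested. The stretches were taken from RefSeq promoter windows on GRCh38.p14, which hold 250 bases before and 50 after a transcript start. Windows were at hand for all 9 genes searched, 18 in all, and RDH10 was not searched. Retinoic acid receptors bind direct repeats of a half-site, here searched as NGNTCA on both strands with 5, 2 or 1 bases between the copies. With 5 bases the repeat was present in 0.723% of 35116 windows, with 2 in 0.675% and with 1 in 0.766%. Among the 18 windows it was found once, with 5 bases, in 1 of the 4 of RARB, at bases -53 to -37 from the start. The sequence, on the plus strand at chr3:25428204-25428232, reads as follows with the half-sites in capitals.
RARB: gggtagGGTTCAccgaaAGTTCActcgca
The match lies inside the gene, spanned by 11 transcripts of the GENCODE 44 annotation and exonic in 3 of them, which start further upstream. It is a match of letters and was not tested as a binding site.

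The 250 bases before the starts of ADH1B and ADH1C were identical at 137 positions (54.8%) without gaps. The 30 bases in which they were most alike, at -92 to -63, differed at the positions in lower case, with 28 identical. The ADH1B stretch is at chr4:99321464-99321493 and the ADH1C stretch at chr4:99352809-99352838, both on the minus strand and the second inside the extent in which reads were counted for ADH1C.
ADH1B: GGGTGTGGCTTAAAgACaTAGATCACGTGT
ADH1C: GGGTGTGGCTTAAAaACcTAGATCACGTGT

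The genes lie on 7 chromosomes of GRCh38. As counted, ADH7 extends over chr4:99412261-99435737, DHRS3 over chr1:12567910-12617731, CRABP2 over chr1:156699606-156705816 and ALDH1A1 over chr9:72900662-73080442, all on the minus strand like the ADH1 pair. DHRS9 (chr2:169064789-169096167), ALDH1A3 (chr15:100877714-100916626), RARB (chr3:25174332-25597932) and RDH10, on chromosome 8, are on the plus strand. The 3 alcohol dehydrogenase genes thus lie near each other in 1 cluster.

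In untreated cells the lines differed in most of these genes. Detroit 562 held 8 of the 10 at a higher level than FaDu and 9 at a higher level than SCC-9. ALDH1A3, which makes retinoic acid from retinal, was the exception in the first comparison together with RARB, and RDH10, a retinol dehydrogenase, in the second. Calls required both a size of at least 0.4 on the log2 scale and an adjusted p below 0.1. By this rule 9 members differed between Detroit 562 and FaDu, where 61.0% of all genes did, 9 between Detroit 562 and SCC-9, where 65.4% did, and 9 between FaDu and SCC-9, where 64.2% did. By direction, 31.2% of all genes were higher in Detroit 562 than in FaDu and 31.4% were higher than in SCC-9.

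Compared per kilobase of annotated exon, ALDH1A3 was the most abundant member in untreated Detroit 562, with 201 ± 1.35 CPM per kb (SD, n = 3). CRABP2 followed with 77.7 ± 27.7 and DHRS9, an oxidoreductase acting on retinol and steroids, with 56.1 ± 20.3 (SD, n = 3), and the libraries of these neighbours overlapped. ADH1C at 24.8 ± 13.4 and DHRS3 at 23.7 ± 2.08 CPM per kb (SD, n = 3) also overlapped. ALDH1A1 stood at 12.3 CPM per kb, overlapping with ADH1C, and RDH10 at 4.89, while ADH7 at 0.393 and RARB at 0.129 were the lowest. GENCODE 44 starts RARB at 24687887, upstream of the counted extent, which starts at 25174332. Its exon length may thus include exons without counted reads, and its level per kb may be too low in each line. ADH7 and RARB are therefore not ranked against each other. ADH1B was left out of this order because reads in the stretch it has in common with ADH1C were counted for both.

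The order was different in the other lines. In untreated FaDu ALDH1A3 stood at 177 ± 9.97 CPM per kb (SD, n = 3), followed by CRABP2 at 14.2, DHRS3 at 5.58 and RDH10 at 1.60, and all other members were below 1. In untreated SCC-9 CRABP2 led with 30.5 ± 4.97 CPM per kb, ahead of ALDH1A3 at 21.9 ± 1.08 (SD, n = 3), DHRS3 at 8.04 and RDH10 at 5.11, and all other members were at 0.0315 or below. The libraries of these 4 genes did not overlap within SCC-9. Counts of ALDH1A3 may hold reads of a long non-coding RNA that GENCODE 44 places over 7616 bases of it on the same strand and that the count table does not list.

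**Figure D1:**
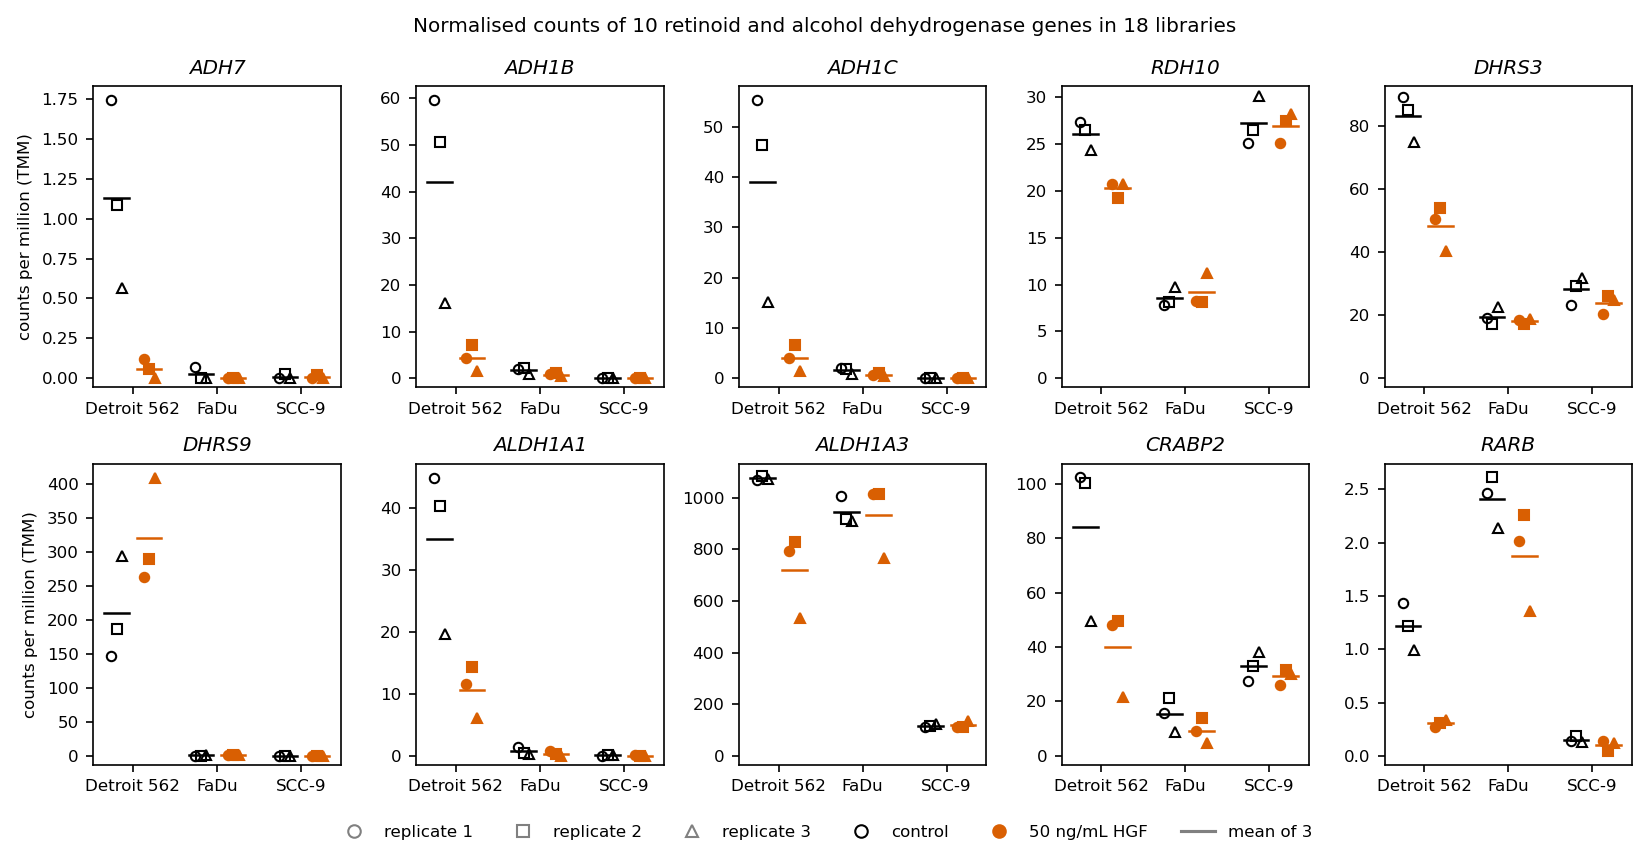
Normalised counts of the 10 genes in the 18 libraries. Each panel is 1 gene, with its CPM on a linear axis, the 3 cell lines along the x axis, open black symbols for control, filled orange symbols for 50 ng/mL HGF, 1 symbol shape per replicate number and a bar at the mean of 3. ADH7, ADH1B, ADH1C, DHRS9 and ALDH1A1 stand above the axis almost solely in Detroit 562, whereas ALDH1A3 is high in Detroit 562 and FaDu.

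The differences between lines were large for DHRS9, the alcohol dehydrogenases and ALDH1A1. DHRS9 had 6273, 6904 and 10963 reads in the untreated Detroit 562 libraries, against 24, 20 and 37 for FaDu and 1, 6 and 3 for SCC-9. The log2 difference between Detroit 562 and FaDu was 8.33 ± 0.321 (SE, adjusted p = 8.62e-13). Relative to SCC-9 the summed counts of DHRS9 differed 2554-fold after scaling by library size (exact 95% interval 1388 to 5326).

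ADH1C had 2347, 1708 and 565 reads in untreated Detroit 562, 84, 77 and 33 in FaDu and 1 in each SCC-9 library. Detroit 562 exceeded FaDu by 4.64 ± 0.507 on the log2 scale (SE, adjusted p = 3.37e-07). Against the 3 reads of SCC-9 the ratio was 1629 (557 to 7903) for Detroit 562 and 63.9 (21.6 to 313) for FaDu.

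ALDH1A1, the other retinaldehyde dehydrogenase, had 1903, 1480 and 731 reads in untreated Detroit 562, whereas FaDu had 60, 21 and 10 and SCC-9 2, 5 and 4. Its log2 difference between Detroit 562 and FaDu was 5.57 ± 0.549 (SE, adjusted p = 9.25e-08), and the ratio to SCC-9 was 396 (221 to 793). ADH7 had 74, 40 and 21 reads in untreated Detroit 562, whereas FaDu had 3, 0 and 0 and SCC-9 0, 1 and 0. Outside Detroit 562 it was thus at the limit of detection, and no fold is given between FaDu and SCC-9. Its ratio of Detroit 562 to FaDu was 48.2 (16.1 to 236) and that to SCC-9 143 (25.2 to 5682).

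ALDH1A3 did not pass the threshold between Detroit 562 and FaDu, with means of 1075 and 943 CPM (log2 0.19 ± 0.134 SE, adjusted p = 0.217), although the 3 libraries of each did not overlap. Both lines exceeded SCC-9, at 117 CPM, by 3.20 and 3.01 on the log2 scale (adjusted p = 4.44e-12 and 1.04e-11). In each of the 3 lines ALDH1A3 had many more reads than ALDH1A1.

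RARB, a nuclear receptor for retinoic acid, had 61, 45 and 37 reads in untreated Detroit 562, while the FaDu libraries held 104, 104 and 91 and those of SCC-9 6, 8 and 5. It was the single member that was higher in FaDu than in Detroit 562 (Detroit 562 minus FaDu -0.98 ± 0.223 SE on the log2 scale, adjusted p = 0.000881). CRABP2 averaged 84.1 CPM in Detroit 562, 33.0 in SCC-9 and 15.4 in FaDu, and all 3 pairs of lines differed (log2 2.45, 1.35 and -1.10 for Detroit 562 minus FaDu, Detroit 562 minus SCC-9 and FaDu minus SCC-9, adjusted p = 2.53e-05, 0.00347 and 0.0151). The untreated libraries of CRABP2 did not overlap between any 2 lines.

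DHRS3, which reduces retinal back to retinol, was at 83.2 CPM in Detroit 562, 28.3 in SCC-9 and 19.6 in FaDu. The log2 difference was 2.08 from FaDu (adjusted p = 5.75e-10) and 1.56 from SCC-9 (adjusted p = 1.52e-08). Between FaDu and SCC-9 it was -0.53 (adjusted p = 0.00208). A second fit, the blocked fit, also had the replicate number within each line as a term. Its differences between untreated lines are those at replicate 1, and there DHRS3 was at -0.30, under the minimum fold. RDH10 was at 26.1 CPM in Detroit 562 and 27.2 in SCC-9, which did not pass the threshold (log2 -0.06 ± 0.115 SE, adjusted p = 0.628), against 8.54 in FaDu (log2 1.61 and -1.67 for the comparisons with it, adjusted p = 2.89e-09 and 1.62e-09).

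HGF was followed by lower levels of most of these genes in Detroit 562. Of the 10 members 8 fell, where 11.7% of all tested genes did, and DHRS9 rose, where 6.16% did. ADH1B and ADH1C, which share reads, are both among the 8. The median log2 fold change of the members was -1.39, against -0.01 for all tested genes. Members were chosen with earlier results of these data known, so that these contrasts with all genes are a description. The alcohol dehydrogenases fell furthest, followed by RARB, ALDH1A1 and CRABP2, with smaller changes of DHRS3 and ALDH1A3. The direction was the same in all 3 same-numbered pairs of libraries for each of the 10 genes. How many of all genes agree in all 3 pairs was not computed for any line, so that such counts are a description. Bulk RNA cannot tell fewer expressing cells from less RNA per cell. With 3 libraries against 3 the exact permutation test cannot give a p below 0.1. That value was reached by the members other than DHRS9 and CRABP2, whose groups overlapped. How many of all genes reach it was not computed.

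Among the alcohol dehydrogenases, ADH7 had 74, 40 and 21 reads in the control libraries of Detroit 562 and 5, 2 and 0 with HGF. The groups did not overlap, and the summed counts were 17.98 times as high in control (exact 95% interval 8.49 to 45.6). The fitted log2 fold change was -4.09 ± 0.679 (SE, adjusted p = 0.00163), a value that depends on the prior count since 1 library had no read. Even in control ADH7 averaged 1.13 ± 0.591 CPM (SD, n = 3).

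ADH1C, a class I alcohol dehydrogenase that oxidises ethanol and retinol, was at 55.3, 46.4 and 15.2 CPM in control and at 4.03, 6.61 and 1.52 CPM with HGF. The highest HGF library was below the lowest control library by more than 2 times, and each pair was lower with HGF, 13.7, 7.01 and 10.0 times in replicates 1, 2 and 3. The log2 fold change was -3.26 ± 0.465 (SE, adjusted p = 0.000543), and it stayed between -3.79 and -2.88 when any 1 of the 6 libraries was left out. The level of ADH1C thus varied several-fold among control libraries, and replicate 3 was the lowest in both conditions.

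ADH1B had 2532, 1863 and 600 reads in control and 173, 253 and 51 with HGF, with a log2 fold change of -3.28 ± 0.477 (SE, adjusted p = 0.000653). This is hardly a second measurement. In the annotation used for counting, ADH1B (ENSG00000196616.13) extends over chr4:99304964-99352760 and ADH1C (ENSG00000248144.5) over chr4:99336492-99353027 on the same strand, so that they have 16269 bases in common, and a read there was counted for both. ADH1C extends slightly further at its 5′ end, where a read counted for ADH1C alone. GENCODE 44 ends ADH1B at 99321401, short of ADH1C, which it places at 99336497 to 99352746.

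The ADH1C count was equal in number to 92.7%, 91.7% and 94.2% of the ADH1B count in the 3 control libraries of Detroit 562. Over each group it was 92.5% in control and 93.5% with HGF, whereas for FaDu the figures were 93.3% and 92.9%. The proportion was therefore nearly the same in both lines and both conditions. The ADH1B count exceeded the ADH1C count by 185, 155 and 35 reads without HGF and by 10, 20 and 1 with it. The mean excess was 3.17 ± 1.93 CPM in control and 0.282 ± 0.270 CPM with HGF (SD, n = 3, two-sided exact permutation p = 0.1, the smallest possible). When this excess took the place of the ADH1B count, its log2 fold change was -3.47 (adjusted p = 0.00488). The excess in FaDu was 4, 8 and 2 reads in control and 4, 3 and 0 with HGF, too few for a comparison. ADH1A, ADH1B and ADH1C are closely related in sequence, and how reads common to them were placed was not tested.

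**Figure D2:**
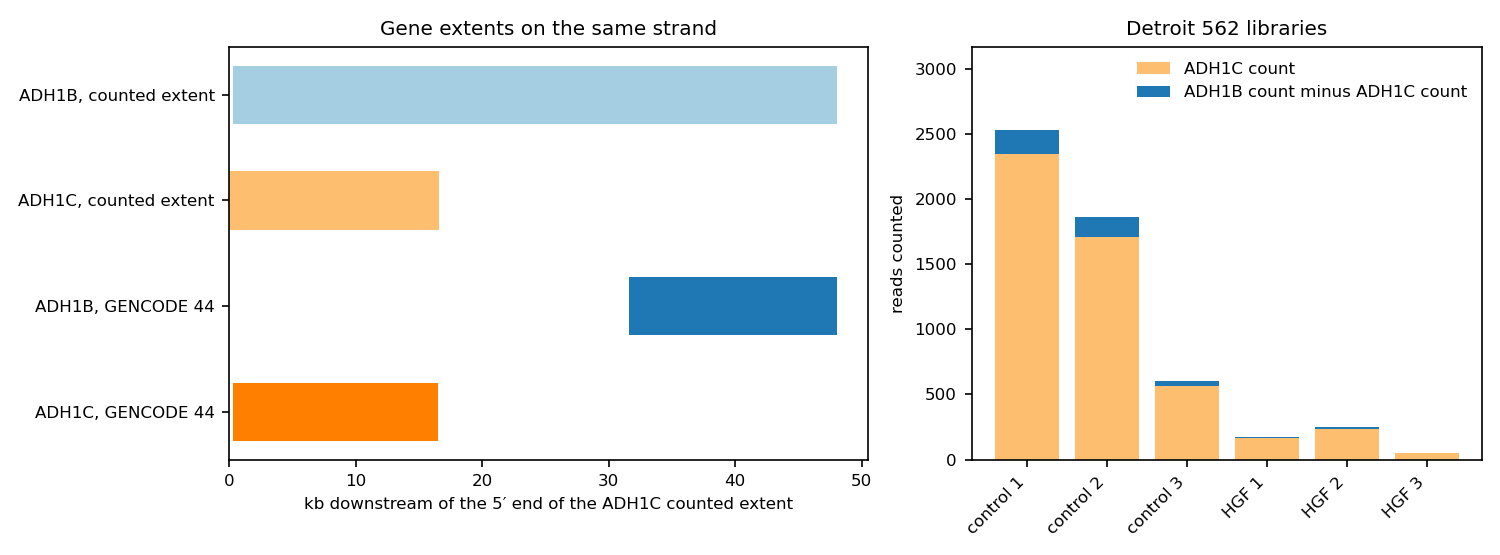
Extents and counts of ADH1B and ADH1C. The left panel draws the extents in which reads were counted and those of GENCODE 44, in kb downstream of the 5′ end of the counted ADH1C extent, and the right panel stacks, for each Detroit 562 library, the ADH1C count and the excess of the ADH1B count over it, from 0. The ADH1C count takes most of the height of each bar, and over the control libraries it was equal in number to 92.5% of the ADH1B count.

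The retinol and retinal oxidoreductases moved in different directions. DHRS3 was at 89.3, 85.3 and 75.1 CPM in control Detroit 562 and at 50.6, 54.0 and 40.4 CPM with HGF. The groups were well apart and the control to HGF ratio was 1.76, 1.58 and 1.86 in the 3 pairs. The log2 fold change was -0.78 ± 0.132 (SE, adjusted p = 0.00136).

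DHRS9 was at 148, 188 and 295 CPM in control and at 264, 290 and 410 CPM with HGF. Replicate 3 was the highest of each group, its control library lay above HGF replicates 1 and 2, and the groups overlapped (exact permutation p = 0.3). Within the pairs HGF was higher by 1.78, 1.55 and 1.39 times. The log2 fold change was 0.61 ± 0.209 (SE, adjusted p = 0.0415). The call was lost without control replicate 1 (0.41, adjusted p = 0.203), control replicate 2 (0.54, adjusted p = 0.147) or HGF replicate 3 (0.40, adjusted p = 0.204), and the adjusted p was 0.13 with DESeq2 and 0.128 in edgeR on the Detroit 562 libraries alone. The blocked fit gave 0.65 (adjusted p = 2.98e-06).

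RDH10, which catalyses the first step from retinol, was at 27.3, 26.5 and 24.3 CPM in control and at 20.7, 19.3 and 20.8 CPM with HGF. The groups did not overlap, but the log2 fold change of -0.36 ± 0.116 (SE, adjusted p = 0.031) was below the minimum of 0.4 in size, so that RDH10 was not called. Without control replicate 3 it was -0.41 (adjusted p = 0.0252) and passed.

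Both genes for retinaldehyde dehydrogenases fell in Detroit 562. ALDH1A1 was at 44.9, 40.2 and 19.7 CPM in control and at 11.6, 14.4 and 6.12 CPM with HGF, a log2 fold change of -1.71 ± 0.428 (SE, adjusted p = 0.00982). Every control library exceeded every HGF library, and the ratio within pairs was 3.88, 2.79 and 3.22. ALDH1A3 was at 1069, 1083 and 1073 CPM in control, the smallest relative spread of the members in this group, and at 794, 827 and 533 CPM with HGF. Its log2 fold change was -0.58 ± 0.135 (SE, adjusted p = 0.0065), and HGF replicate 3 was the farthest from control. As ALDH1A3 was the more abundant, its drop from a mean of 1075 to 718 CPM was larger in CPM than that of ALDH1A1 from 34.9 to 10.7 although it was smaller as a fold.

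CRABP2, which carries retinoic acid to the nucleus, was at 103, 100.2 and 49.4 CPM in control and at 48.2, 49.7 and 21.8 CPM with HGF. Control replicate 3 fell just below HGF replicate 2, so that the groups overlapped (exact permutation p = 0.2), whereas within pairs control was 2.13, 2.02 and 2.27 times as high. The log2 fold change was -1.07 ± 0.370 (SE, adjusted p = 0.0429), and the call was lost without control replicate 1 (-0.91, adjusted p = 0.165), control replicate 2 (-0.93, adjusted p = 0.142) or HGF replicate 3 (-0.78, adjusted p = 0.165). The blocked fit gave -1.09 (adjusted p = 3e-08).

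RARB, shown above with its promoter match, had 61, 45 and 37 reads in the control libraries and 11 in each library with HGF. These were 1.44, 1.22 and 0.996 CPM against 0.272, 0.312 and 0.335 CPM. The groups were far apart. The log2 fold change was -1.99 ± 0.279 (SE, adjusted p = 0.000451) and remained between -2.12 and -1.85 when any 1 library was left out.

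**Figure D3:**
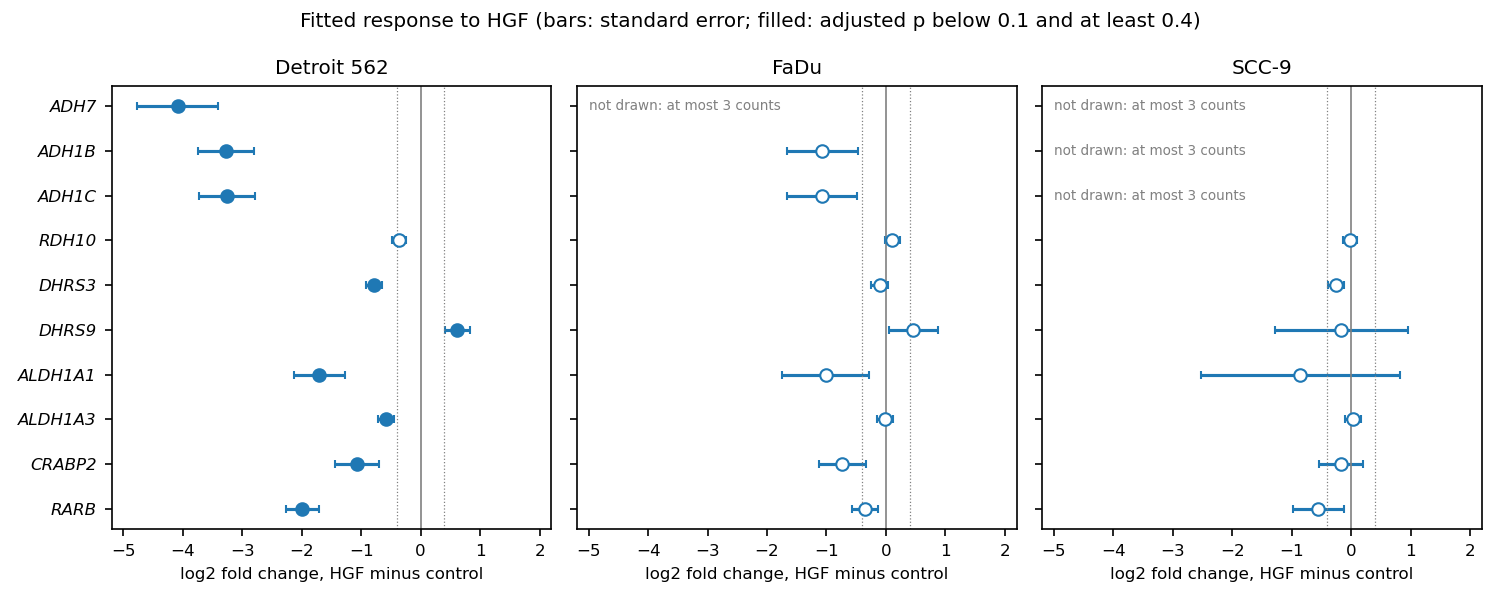
Fitted response of the 10 genes to HGF in each line. The x axis is the log2 fold change, HGF minus control, bars are its standard error, filled circles passed the threshold, dotted lines mark 0.4 in either direction, and genes with at most 3 counts per library in both groups are not drawn. In Detroit 562 8 genes are filled to the left and DHRS9 to the right, with no filled circle in FaDu or SCC-9.

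The replicate number separated the members' levels in Detroit 562. Control replicate 3 was the lowest control library for ADH7, ADH1B, ADH1C, RDH10, DHRS3, ALDH1A1, CRABP2 and RARB, and the highest for DHRS9. HGF replicate 3 was likewise the lowest of its group for ADH7, ADH1B, ADH1C, DHRS3, ALDH1A1, ALDH1A3 and CRABP2, and the highest for RDH10, DHRS9 and RARB. What set replicate 3 apart was not tested. The blocked fit called the same 9 genes, where 21.5% of all genes were called.

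In FaDu no member passed the threshold with edgeR, where 0.0258% of all genes did. None of the 10 had an unadjusted p below 0.05, and DESeq2 also called 0. No share of all genes is at hand for the unadjusted limit or for DESeq2. CRABP2 was at 15.9, 21.3 and 8.94 CPM in control and at 9.25, 13.9 and 4.69 CPM with HGF, a log2 fold change of -0.73 ± 0.393 (SE, adjusted p = 0.641). ADH1C had 84, 77 and 33 reads in control and 31, 41 and 20 with HGF (-1.07 ± 0.587 SE, adjusted p = 0.641). In both genes control replicate 3 lay within the range of the HGF libraries.

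Within same-numbered pairs of FaDu the libraries with HGF were lower in 3 of 3 pairs for ADH1B, ADH1C, ALDH1A1, CRABP2 and RARB. DHRS9 and RDH10 were higher in 3 of 3 pairs. The share of all genes that agree in 3 of 3 pairs was not computed. In the blocked fit 4 of the 10 fell, where 3.60% of all genes did. CRABP2 fell by 0.76 on the log2 scale (SE 0.0791, adjusted p = 6.63e-05), and its pairs were 1.72, 1.54 and 1.91 times as high in control. ADH1B and ADH1C each fell by 1.07 (adjusted p = 0.0142 and 0.0161), 1 signal with pair ratios of 2.77, 1.88 and 1.60 for ADH1C. ALDH1A1, with 60, 21 and 10 reads in control and 32, 12 and 1 with HGF, fell by 1.04 (adjusted p = 0.0385). ALDH1A3 was at 943 ± 53.2 CPM in control and 932 ± 142 with HGF (SD, n = 3), which did not pass in either fit.

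**Figure D4:**
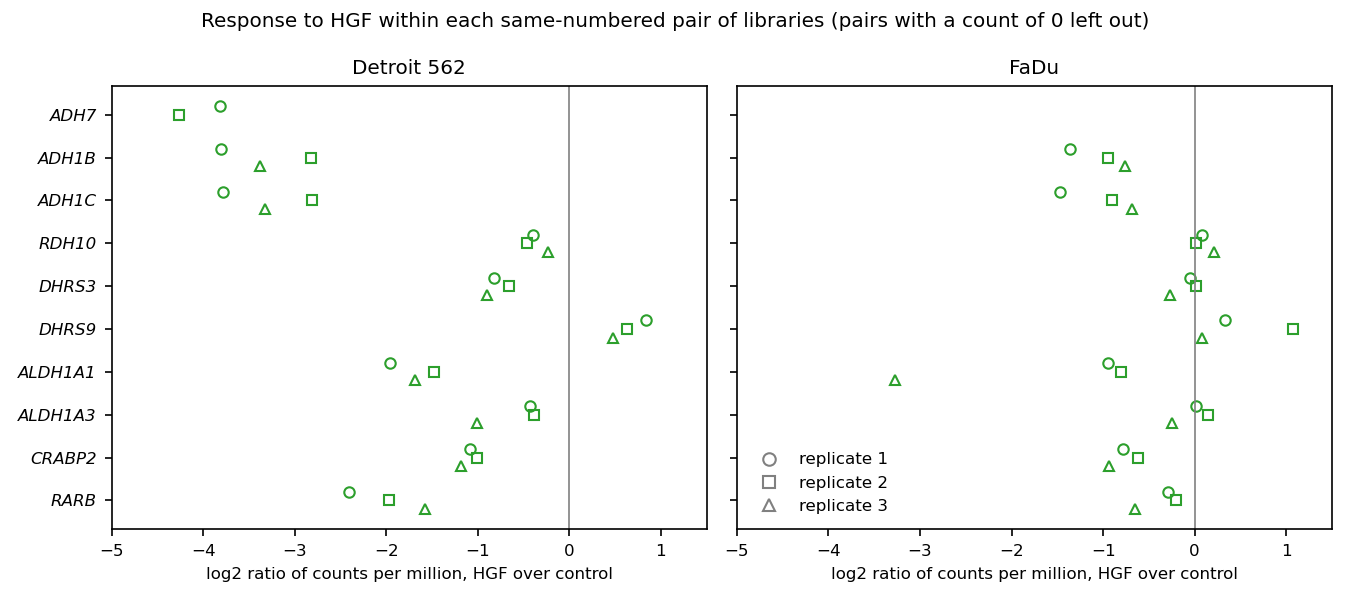
Response to HGF within same-numbered pairs of libraries in Detroit 562 and FaDu. The x axis is the log2 ratio of CPM, HGF over control, with 1 symbol per replicate number and pairs with a count of 0 left out. In FaDu all 3 symbols lie left of 0 for ADH1B, ADH1C, ALDH1A1, CRABP2 and RARB, and right of 0 for RDH10 and DHRS9.

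In SCC-9 no member was called with edgeR, where 0% of all genes were. None had an unadjusted p below 0.05 and DESeq2 called 0, again with no share of all genes at hand. The blocked fit again called 0 of the members, where 1.97% of all genes were called. DHRS3 was at 23.4, 29.4 and 32.0 CPM in control and at 20.5, 26.1 and 24.7 CPM with HGF. It was lower in 3 of 3 pairs, as was CRABP2. RARB had 6, 8 and 5 reads in control and 6, 2 and 5 with HGF, equal in replicates 1 and 3. The log2 fold change of DHRS3 was -0.25 in both fits (adjusted p = 1, and 0.0624 when blocked), below the minimum size. CRABP2 was at 33.0 CPM in control SCC-9 and 29.2 with HGF, and ALDH1A3 at 117 and 119 CPM. ADH7, ADH1B and ADH1C had at most 2 reads in any SCC-9 library, so that a response of the alcohol dehydrogenases could not be measured there at this depth.

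The response in Detroit 562 was compared with that in the other lines by interaction terms, called at an adjusted p below 0.1. No member passed for Detroit 562 against FaDu, where 0.239% of all genes did, none for Detroit 562 against SCC-9, where 0.924% did, and none for FaDu against SCC-9, where 0% did. The first pair of comparisons uses the same Detroit 562 libraries. At an unadjusted p below 0.05 the members numbered 6, 4 and 0, with both ADH1B and ADH1C among the 6. The share of all genes at that limit was not computed. RARB was closest, with a response 1.64 lower on the log2 scale in Detroit 562 than in FaDu (adjusted p = 0.106), and it passed without Detroit 562 control replicate 3 (-1.76, adjusted p = 0.0406) or FaDu HGF replicate 3 (-1.83, adjusted p = 0.0607). Without Detroit 562 control replicate 3 the calls against FaDu were 4 (ADH1B, ADH1C, DHRS3 and RARB) and those against SCC-9 1 (DHRS3). DESeq2 called the same 4 against FaDu with its prior and DHRS3 and RARB without, and ADH1B, ADH1C and ALDH1A3 against SCC-9 either way. No share of all genes is at hand for DESeq2 or for fits with a library left out.

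In the blocked fit 7 members responded differently in Detroit 562 and FaDu, where 19.1% of all genes did. The Detroit 562 response was the lower for each, by -2.21 for ADH1C (adjusted p = 0.000861), -1.63 for RARB (adjusted p = 0.00634), -0.69 for DHRS3 (adjusted p = 0.000556), -0.58 for ALDH1A3 (adjusted p = 0.0142), -0.47 for RDH10 (adjusted p = 0.0075) and -0.33 for CRABP2 (adjusted p = 0.0474), with ADH1B alongside ADH1C at -2.24. ALDH1A1, which was lower with HGF in every pair of both lines, was not among them.

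Against SCC-9 the blocked fit called 6 members, where 26.9% of all genes passed. These were CRABP2 (-0.92, adjusted p = 3.81e-05), DHRS3 (-0.54, adjusted p = 0.00117), ALDH1A3 (-0.63, adjusted p = 0.00603) and RDH10 (-0.35, adjusted p = 0.0148), together with ADH1B and ADH1C, for which the SCC-9 side rests on 1 or 2 reads per library. Between FaDu and SCC-9 CRABP2 was called (-0.59, adjusted p = 0.0211), where 1.32% of all genes were.

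The wider pathway was described by 47 further genes, of which 37 passed the filter. In Detroit 562 10 of these fell and 2 rose with HGF, where 11.7% and 6.16% of all genes did, and their median log2 fold change was -0.31. DESeq2, for which no share of all genes is at hand, called 1 of the 37 in FaDu. For FaDu and SCC-9 edgeR called 0. An unadjusted p below 0.05, for which no share of all genes was computed, was seen for 2 in each line. The blocked fit called 19 for Detroit 562, 5 for FaDu and 2 for SCC-9, where it called 21.5%, 5.60% and 1.97% of all genes.

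For uptake, STRA6, the membrane receptor that takes up retinol, was at 31.6, 32.1 and 30.2 CPM in control Detroit 562 and at 18.7, 16.9 and 13.6 CPM with HGF (log2 fold change -0.93 ± 0.238 SE, adjusted p = 0.0106). It was the only called gene among the 8 tested for uptake and storage, where 11.7% of all genes fell and 6.16% rose. Of the 13 tested oxidoreductases RDH16 (3.11 to 0.973 CPM, log2 fold change -1.65), DHRS2 (1.66 to 0.970, -0.76) and AKR1B10 (98.9 to 27.4, -1.85), which reduces retinal and other aldehydes, fell, and DHRS7 (48.4 to 65.5, 0.44) rose (adjusted p = 0.00794, 0.055, 0.0272 and 0.00115). ADH5, the formaldehyde-oxidising class III enzyme, was at 149 CPM in control and 139 with HGF (-0.10, adjusted p = 0.397), and ADH1A, ADH4 and ADH6 were too low to be tested.

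The retinoic acid carriers CRABP2 and FABP5 moved apart in Detroit 562, and CRABP1, also on the list, was not called. While CRABP2 fell, FABP5, which delivers retinoic acid and fatty acids to other receptors, was at 51.3, 53.9 and 62.6 CPM in control and at 95.7, 95.8 and 94.2 CPM with HGF (log2 fold change 0.77 ± 0.0875 SE, adjusted p = 0.000116). Its response was larger than that in SCC-9 by 0.71 (adjusted p = 0.0242), and DHRS7 also differed there (0.44, adjusted p = 0.0818). FABP5 stood at 125 and 146 CPM in FaDu and at 135 and 140 in SCC-9, control and HGF. CYP26A1, which breaks down retinoic acid, fell from 2.69 to 1.38 CPM in Detroit 562 (-0.96, adjusted p = 0.0747), and CYP26B1 was at 7.61 and 11.1 CPM (0.55, adjusted p = 0.207).

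Of the 4 other receptor genes tested 3 fell in Detroit 562, where 11.7% of all genes did. The list is small and was chosen with earlier results of these data known. RARG, the predominant receptor of the epidermis, fell from 133 to 83.3 CPM (log2 fold change -0.68, adjusted p = 0.0112), RXRA from 181 to 119.6 (-0.59, adjusted p = 0.0115) and RXRB from 28.9 to 21.9 (-0.40, adjusted p = 0.00657), while RARA at 37.5 and 44.1 CPM did not reach the minimum size (0.24, adjusted p = 0.048). Of 6 genes known to respond to retinoids RARRES3 (32.8 to 11.1 CPM, -1.55, adjusted p = 0.00129) and RARRES2 (0.703 to 0.296, -1.24, adjusted p = 0.0463) fell. RARRES3 had 35.6, 39.9 and 22.7 CPM in control and 11.1, 15.5 and 6.79 with HGF, with no overlap.

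Blocking by replicate number changed some of these calls in the other lines. In FaDu AKR1B10 (-0.92, adjusted p = 0.00156), CYP26A1 (-0.64, adjusted p = 0.0246) and RARRES3 (-0.49, adjusted p = 0.0372) fell and CYP26B1 (0.46, adjusted p = 0.0484) and NRIP1 (0.41, adjusted p = 0.00464) rose. In SCC-9 RARG (-0.48, adjusted p = 0.00681) and RARRES1 (-0.78, adjusted p = 0.00285) fell.

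**Figure D5:**
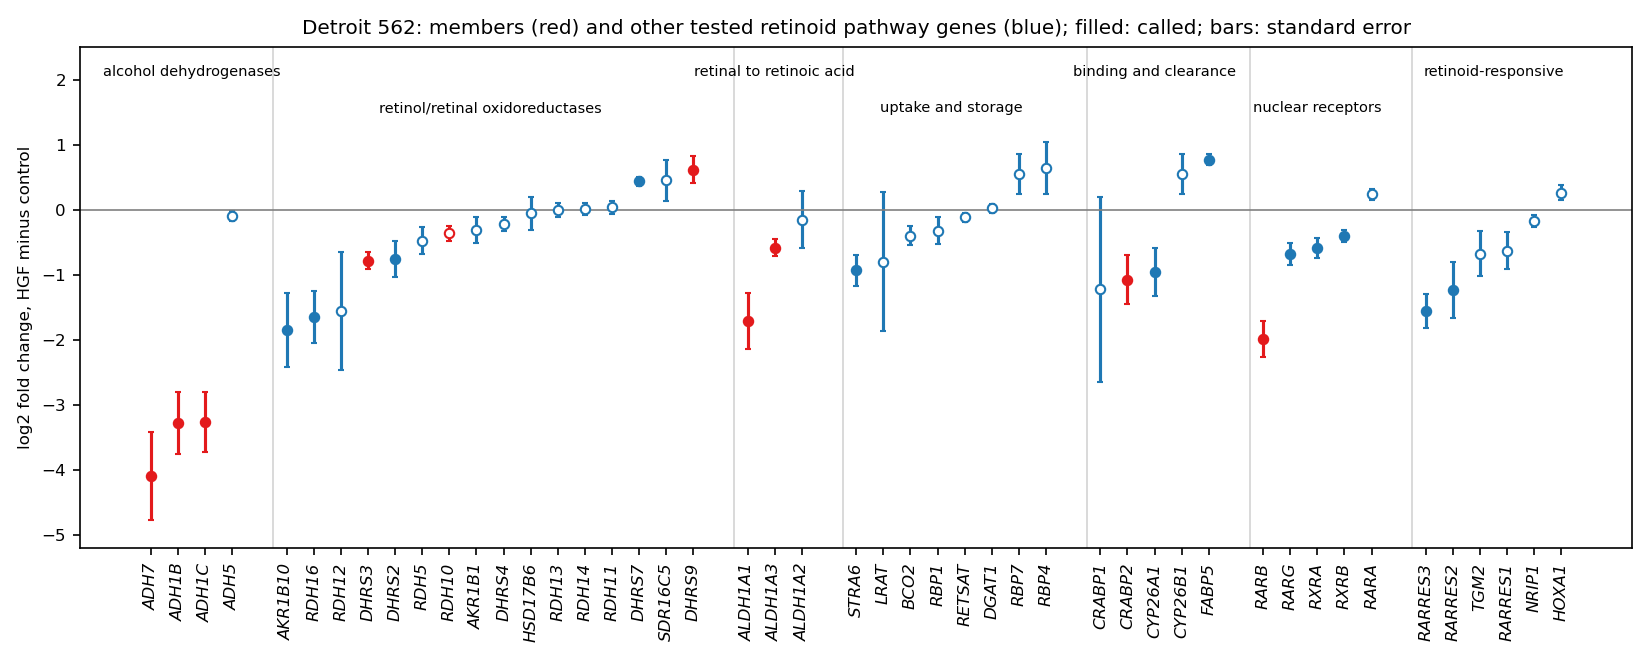
Response of the retinoid pathway to HGF in Detroit 562. The y axis is the log2 fold change, HGF minus control, with standard errors as bars, red for the 10 members and blue for the 37 other tested genes, grouped by role and filled where the threshold was passed. The alcohol dehydrogenases ADH7, ADH1B and ADH1C lie lowest, while DHRS9, DHRS7 and FABP5 are the filled circles above 0.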

How the data were processed

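The deposited values are raw counts of reads per gene, whole numbers that the authors did not normalise. Per the labels and the study's methods, stranded mRNA libraries were trimmed with Cutadapt 1.16, aligned with STAR 2.5.2b to GRCh38 and counted with bedtools on GENCODE 28 genes. A read was counted for every gene of its strand that it overlapped, which adds shared reads to both genes of an overlapping pair. The study's methods give the cell experiment as performed 3 times, and the labels do not say which libraries came from which run. The p-values measure the spread between these libraries of 1 line each.

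Genes were filtered with filterByExpr and normalised by TMM in edgeR 4.0.16 (R 4.3.3), and a quasi-likelihood model with 1 mean per line and treatment was fitted to the 18 libraries. Unless DESeq2 (1.42.0) is named, p-values come from the quasi-likelihood F test of edgeR and were adjusted over the 15475 genes by the method of Benjamini and Hochberg. A standard error (SE) is the log2 fold change divided by the square root of the F statistic. Permutation tests were exact and two-sided. Count ratios have exact 95% intervals (Clopper-Pearson). Exon lengths are from GENCODE 44.

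Libraries of the same number deviated together from their group means (correlation across genes 0.161 to 0.563 in every pair). The numbers were therefore taken to pair the libraries, and the blocked fit, with a term for the number in each line, was an alternative. Replicate 1 was the reference of these terms. HGF responses in the blocked fit are thus within numbers, and its differences between untreated lines are those at replicate 1. For different numbers the mean correlations were -0.227 to -0.136. These follow from the same-number values, since deviations from a group mean cancel out, and are no separate evidence. Other alternatives were size factors of DESeq2 or upper-quartile factors in edgeR, no filter or one that asked 3 libraries for 50 counts, DESeq2 itself (with its prior and without), the compared lines alone, calls without a minimum fold or with a stricter pair of limits (0.05 for the adjusted p, 1 for the log2 fold change), and each library left out in turn. The ADH1B count minus the ADH1C count was added after the data were seen. The fits were tested on simulated data.

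The genes named are the 10 members, the other pathway genes called in a comparison of HGF responses with RARA, RARG, RXRA, CYP26A1, CYP26B1 and STRA6, the 5 genes most like ADH1C, and MET and DUSP6. ADH5 and the genes called by the block alone were named after their values were seen. Members and lists were chosen with earlier results of these data known. The summary over the immune markers is not reported here.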

Additional observations from a re-analysis of the deposited data

How the results depend on the processing

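Of the 10 members, 9 were called in Detroit 562 and between 6 and 10 under the alternatives, 6 with the stricter threshold, 7 to 10 when a library was left out (7 without control replicate 1, control replicate 2 or HGF replicate 3, and 10 without control replicate 3). No called fold change of a member changed sign under an alternative. Of the members' 78 fold changes, 15 that were not called did, in 26 alternatives in all. In the blocked fit the members called were 4 in FaDu in place of 0. Those with a different response were 7, 6 and 1 for Detroit 562 against FaDu, Detroit 562 against SCC-9 and FaDu against SCC-9, each in place of 0, and the other pathway genes were 19, 5 and 2 in Detroit 562, FaDu and SCC-9 in place of 12, 0 and 0. Between untreated lines the blocked fit gives the difference at replicate 1, not one over all 3 numbers. There, between FaDu and SCC-9, DHRS3 was no longer called and ADH7 was, on at most 3 reads per library. The blocked fit changed no other call of a member. DESeq2 with its prior gave 4 members for Detroit 562 against FaDu, and 2 without it. Both gave 3 against SCC-9 (ADH1B, ADH1C and ALDH1A3) and 1 other pathway gene in FaDu. The filter at 50 counts gave 1 member (RARB) for Detroit 562 against FaDu. Shares of all genes are at hand for edgeR as described and for the blocked fit. The counts under other alternatives are a description. With 1 library left out the members with a different response ranged from 0 to 4 against FaDu (4 without Detroit 562 control replicate 3), from 0 to 1 against SCC-9 (1 without the same library) and from 0 to 0 for FaDu against SCC-9. The members called ranged from 0 to 0 in FaDu and in SCC-9 and from 9 to 9 between untreated lines. The other pathway genes ranged from 8 to 15 in Detroit 562, from 0 to 1 in FaDu (1 without FaDu control replicate 3) and from 0 to 0 in SCC-9, and the stricter threshold left 4 of the 12 in Detroit 562. Beyond this difference in what the blocked fit compares between untreated lines, the cause of these changes was not tested. Scaling moved the median of all genes by less than 0.1. Depth limits ADH7 outside Detroit 562 and the ADH1 pair in SCC-9.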

Other observations

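The genes whose levels were most like those of ADH1C over the 18 libraries, by Pearson's r of log2 CPM among 13150 genes with a mean count of at least 50, were EPB41L1 (0.989), TMEM19 (0.987), RP11-293I14.2 (0.986), TMEM106C (0.986) and CCNYL1 (0.985). The points share libraries and 3 cell lines, so that r mostly describes the order of the lines. TMEM19 and RP11-293I14.2 are listed over the same stretch of chromosome 12 on the same strand and may share reads.

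EPB41L1, which codes for a cytoskeletal linker, was at 279 CPM in control Detroit 562, 86.4 in FaDu and 25.8 in SCC-9, and at 122 CPM with HGF in Detroit 562. TMEM19, a membrane protein, was at 81.2, 42.8 and 19.3 CPM in the control cells of these lines and at 46.3 CPM with HGF in Detroit 562. Since the genes were chosen for their likeness to ADH1C in these libraries, their levels are a description with no test.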
